A study of Mus musculus with 6 samples.

Results

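The ISG15 conjugation system was described through 5 transcripts, the modifier Isg15, its E1 enzyme Uba7, its E2 enzyme Ube2l6, its E3 ligase Herc6 and its deconjugase Usp18. They were chosen by name for these roles, and all 5 were among the 12969 genes measured. RNA-seq was made from infarct tissue of male mice, about 12 weeks old, in which the left anterior descending coronary artery had been tied off for good 4 days before. The knockout group held 3 libraries from mice of genotype IRF3-/-, called Irf3KO here, and the other group 3 libraries from wild-type (WT) mice of strain C57BL/6. The labels do not describe the animals further, so the spread among libraries may be technical. The sources used here give neither the strain of the knockout mice nor the deleted part of Irf3. Values are RPKM, reads scaled to gene length and to the depth of the library. Levels of different genes can be set side by side as far as the deposited gene lengths fit the transcripts.

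ISG15 is a small protein built of a pair of ubiquitin-like folds, and cells exposed to type I interferon attach it to many of their proteins. UBA7 activates ISG15, UBE2L6 carries it, and a HERC ligase transfers it to the target, which is HERC6 in mice and HERC5 in humans. USP18 takes ISG15 off again and, apart from that activity, dampens signalling at the type I interferon receptor. Genes of this system are textbook interferon-stimulated genes, switched on through the factor ISGF3, which binds a promoter element called ISRE. IRF3, the factor lacking in the knockout, can act on such elements directly as well as through interferon.

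The stretch upstream of the transcription start is shown for 4 members. Genes of this system are known as interferon-stimulated, and the letters of the ISRE can be looked for there. The sequences are from RefSeq on build GRCm38.p6, 250 bases each, 5′ to 3′ on the strand of the gene. Capitals mark matches to the core letters of the ISRE, which are GAAA, any 2 bases and GAAA again, in Isg15, and a match to the looser AANNGAAA, read on the other strand, in Uba7.
Isg15, chr4:156200819-156201068, - strand: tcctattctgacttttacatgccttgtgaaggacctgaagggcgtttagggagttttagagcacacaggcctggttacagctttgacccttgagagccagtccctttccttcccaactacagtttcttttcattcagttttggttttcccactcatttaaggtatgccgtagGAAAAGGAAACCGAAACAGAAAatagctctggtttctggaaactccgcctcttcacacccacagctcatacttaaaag
Uba7, chr9:107975317-107975566, + strand: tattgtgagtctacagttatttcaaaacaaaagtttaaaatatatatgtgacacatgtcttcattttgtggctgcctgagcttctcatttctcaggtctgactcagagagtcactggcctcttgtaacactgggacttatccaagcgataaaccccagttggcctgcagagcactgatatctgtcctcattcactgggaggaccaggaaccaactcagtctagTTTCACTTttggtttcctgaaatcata
Ube2l6, chr2:84798578-84798827, + strand: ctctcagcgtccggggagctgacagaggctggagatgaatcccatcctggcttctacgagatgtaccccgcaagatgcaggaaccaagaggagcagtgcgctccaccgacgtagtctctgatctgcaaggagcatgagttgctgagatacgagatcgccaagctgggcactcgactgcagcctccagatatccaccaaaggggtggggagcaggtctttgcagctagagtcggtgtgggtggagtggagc
Herc6, chr6:57580742-57580991, + strand: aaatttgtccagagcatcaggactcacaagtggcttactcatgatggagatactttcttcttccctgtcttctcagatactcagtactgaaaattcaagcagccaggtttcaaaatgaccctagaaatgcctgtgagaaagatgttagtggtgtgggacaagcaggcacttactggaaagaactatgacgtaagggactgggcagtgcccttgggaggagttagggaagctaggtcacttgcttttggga
Usp18 is named only.

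The ISRE core was searched on both strands in windows that ran on to 50 bases past the start. The Isg15 window held 3 overlapping matches between 78 and 57 bases before the start, and the Uba7, Ube2l6 and Herc6 windows held none. Of 32544 promoters of the same length, 3.45% held at least 1 match. The Uba7 match to AANNGAAA lay 27 to 20 bases before the start. That shorter motif, whose letters are contained in the ISRE core and which was added after the sequences had been read, occurred in 23.9% of promoters. It also occurred in Isg15, and it had no match in Ube2l6 or Herc6. TTCNNNGAA, the core letters of the element bound in the interferon-gamma response, was in 8.33% of promoters and in none of the 4. Of the sequences shown, that of Ube2l6 had the highest GC content, 58.4%, against 42.0% to 46.0% in the others. These matches describe letters in the windows and not binding.

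The libraries held 14.8 to 61.9 M reads in genes, estimated from the steps between low values, and the genes of the table accounted for 99.2% to 99.6% of that depth in each library. Irf3, the targeted gene, stood at 7.40, 8.74 and 7.68 RPKM in Irf3KO and at 13.76, 13.87 and 11.56 RPKM in WT, lower in every knockout library but still read. Irf3KO replicate 2 stood apart: a typical gene was 0.29 lower there on the log2 scale relative to the WT mean, against medians between -0.04 and 0.04 in the other 5 libraries. The summed level of 14 macrophage markers was also lowest there, at 2240 RPKM, against 4674 and 5828 RPKM in the other knockout libraries and 3415 to 6242 RPKM in WT. Lyz2 weighed most in this sum, at 833 RPKM there and 3826 and 2859 RPKM in the other knockout libraries. Among the knockout libraries, C1qa was the only one of these markers not lowest in replicate 2, at 381 RPKM against 359 and 329 RPKM. Summed fibroblast markers, 10 genes, were at 3729 to 5156 RPKM in Irf3KO and 5879 to 6558 RPKM in WT, and summed cardiomyocyte markers, 10 genes, at 11637 to 19302 RPKM in Irf3KO and 5867 to 15808 RPKM in WT. None of these markers was at 0 in any library. Of 10 lymphocyte markers only Cd4 was in the table, at 0.69 to 0.93 RPKM in Irf3KO and 1.32 to 1.34 RPKM in WT. In bulk tissue, fewer cells of a type and less RNA per cell cannot be told apart, and the part of cell makeup in the results below was not tested.

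The modifier and the deconjugase fell in the knockout, the ligase and the E1 enzyme were lower in every knockout library, and the E2 enzyme was not. Across the 12913 genes tested, those averaging 1 RPKM or more, limma called 0.356% lower and 0.147% higher in Irf3KO at an adjusted p under 0.05. It called 2 of the 5 members, Isg15 and Usp18, lower and none higher. All Irf3KO libraries lay below all WT libraries for 4 members, Isg15, Usp18, Herc6 and Uba7, and this was so for 11.8% of all tested genes. No member had all Irf3KO libraries above all WT libraries, as 6.61% of tested genes had. The median log2 fold change of the 5 was -1.35, beside -0.09 over all tested genes.

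Isg15, the modifier itself, stood at 7.96, 6.14 and 8.57 RPKM in Irf3KO and at 53.04, 40.09 and 41.49 RPKM in WT. The highest knockout library was far below the lowest wild-type library, and the 3 knockout libraries lay close together. The mean in Irf3KO was 16.8% of that in WT, which is -2.42 ± 0.21 (SE of the log2 fold change, 3 libraries a group) on the log2(RPKM + 1) scale and a 95% interval from -2.89 to -1.95 (limma adjusted p = 0.00227). These values rest on 84 to 401 reads per library in Irf3KO and 493 to 757 reads in WT. Isg15 was called whichever of the 6 libraries was left out, with adjusted p between 0.00282 and 0.0246.

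Usp18, which removes ISG15 from proteins, stood at 2.44, 1.28 and 2.97 RPKM in Irf3KO and at 10.06, 13.62 and 13.41 RPKM in WT. Again the groups did not overlap, with Irf3KO replicate 2 the lowest library and WT replicate 1 the lowest of its group. The Irf3KO mean was 18.04% of the WT mean, and the log2 difference was -2.08 ± 0.25 (SE, 3 libraries a group; adjusted p = 0.0129 by limma), with 41 reads behind the lowest value. The fall lost its call when any one wild-type library was left out (adjusted p = 0.0637, 0.0765 and 0.117 without WT replicates 1, 2 and 3), while the fold change was -2.21, -2.005 and -2.02.

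Herc6, the ligase, stood at 2.24, 0.54 and 2.05 RPKM in Irf3KO and at 5.35, 5.52 and 5.10 RPKM in WT. The wild-type libraries were nearly equal, and the spread in the knockout came from replicate 2, whose value rests on 53 reads. On the log2 scale the difference was -1.35 ± 0.29 (SE, 3 libraries a group), which did not pass over all genes (limma adjusted p = 0.139). Without Irf3KO replicate 2 it was smaller, -1.01 ± 0.12, and was called (adjusted p = 0.0186).

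Uba7, the E1 enzyme that starts the cascade, stood at 4.31, 2.94 and 4.57 RPKM in Irf3KO and at 8.46, 9.01 and 8.67 RPKM in WT. The groups did not overlap, and the Irf3KO mean was 45.2% of the WT mean. The log2 difference was -0.99 ± 0.20 (SE, 3 libraries a group; adjusted p = 0.1099 by limma), and -0.84 ± 0.12 without Irf3KO replicate 2, where it was called (adjusted p = 0.0356). With that library left out, 4 of the 5 members were called lower, against 0.541% of 12937 tested genes lower and 0.209% higher. In that fit Isg15 was at -2.30 and Usp18 at -1.84, so that each of the 4 differences was closer to 0 and had a smaller error than with all libraries.

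Ube2l6, the E2 enzyme, stood at 22.52, 34.90 and 16.52 RPKM in Irf3KO and at 31.08, 18.77 and 20.69 RPKM in WT. The groups overlapped fully: the highest and the lowest of the 6 values were both knockout libraries. The highest was Irf3KO replicate 2, the library in which the other 4 members were at their lowest. The log2 difference was 0.03 ± 0.31 (SE, 3 libraries a group; adjusted p = 0.957 by limma), with a 95% interval from -0.67 to 0.73. The point values of the other 4 members, from -2.42 to -0.99, lay outside it, but the interval of Uba7, from -1.45 to -0.53, overlapped it. Without Irf3KO replicate 2 the value of Ube2l6 was -0.24 ± 0.24 (adjusted p = 0.863), with an interval from -0.82 to 0.34 that reaches almost to the -0.84 of Uba7 in the same fit. Between 649 and 2041 reads per library lay behind these values.

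**Figure D1:**
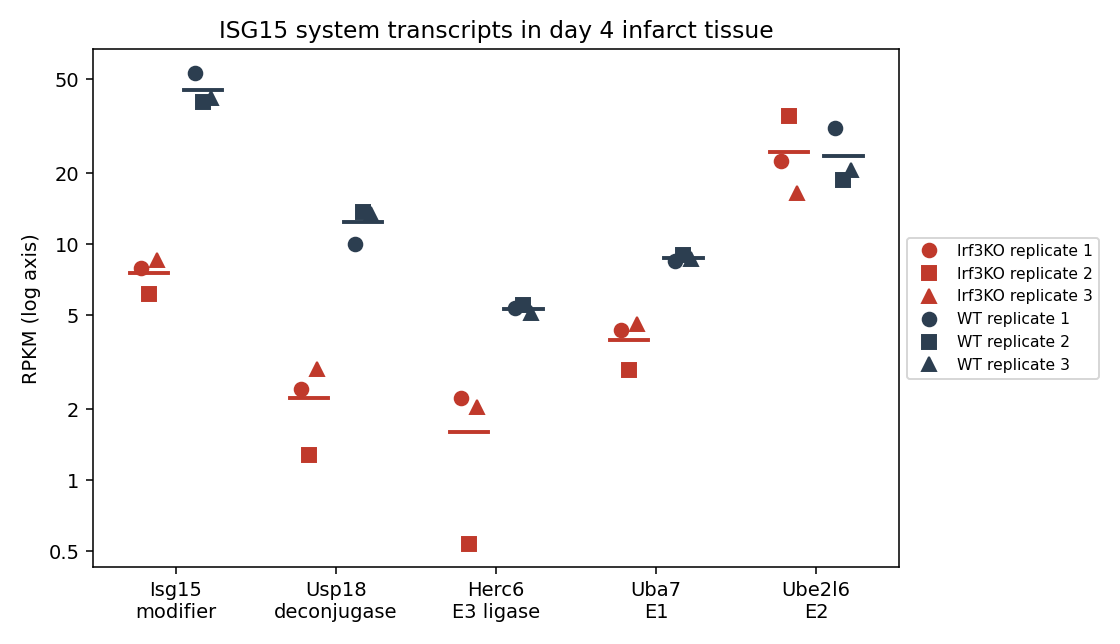
RPKM (log axis) of the 5 ISG15 system transcripts in each library, Irf3KO in red and WT in dark blue, with bars at group means. Isg15 lay between 6.14 and 8.57 RPKM in Irf3KO and between 40.09 and 53.04 RPKM in WT, whereas the Ube2l6 groups overlapped, from 16.52 to 34.90 RPKM in Irf3KO and from 18.77 to 31.08 RPKM in WT.

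**Figure D2:**
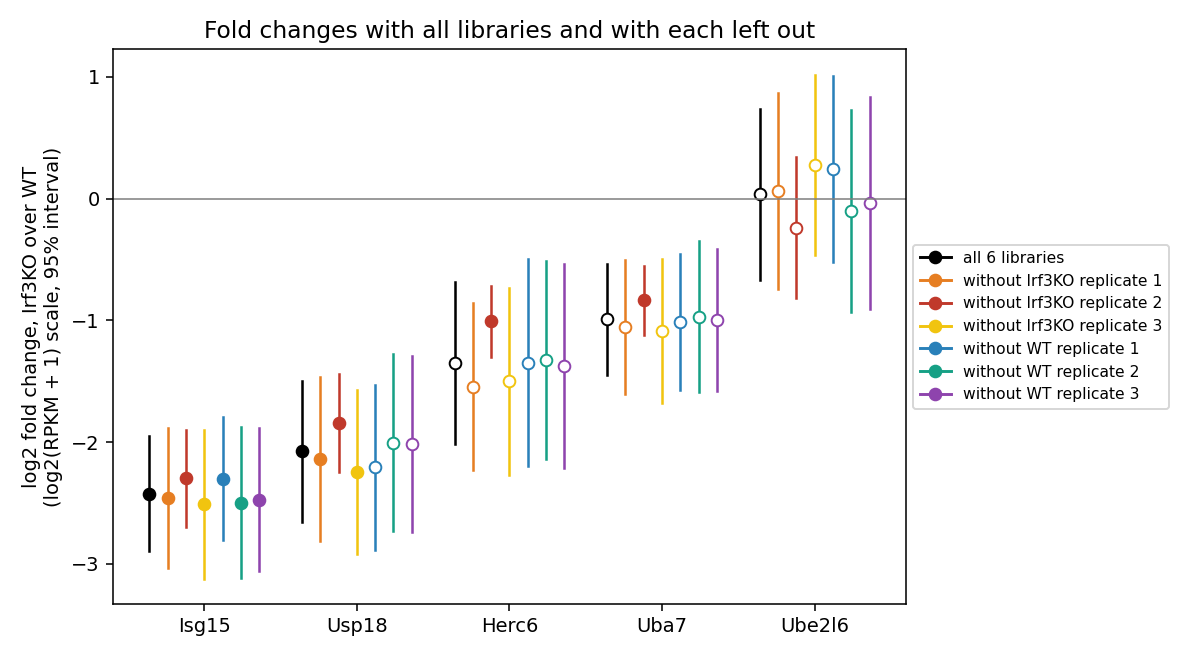
Log2 fold change (Irf3KO over WT, 95% interval) of each member with all libraries and with each one left out; filled points had a limma adjusted p under 0.05, open points did not. Isg15 was called in all 7 fits, Uba7 and Herc6 only without Irf3KO replicate 2, and Ube2l6 in none, its value ranging from -0.24 to 0.28 with a library left out.

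The order of the 5 transcripts by RPKM, which rests on the deposited gene lengths, differed between the genotypes. In each Irf3KO library it ran Ube2l6, Isg15, Uba7, Usp18, Herc6 from high to low, and in each WT library Isg15, Ube2l6, Usp18, Uba7, Herc6. Neighbours in the WT order did not overlap across libraries, the closest being Usp18, at least 10.06 RPKM, and Uba7, at most 9.01 RPKM. In Irf3KO the ranges of Uba7 and Usp18 met, 2.94 to 4.57 and 1.28 to 2.97 RPKM, and those of Usp18 and Herc6 overlapped. Per RPKM of Ube2l6 there was 0.353, 0.176 and 0.519 RPKM of Isg15 in Irf3KO and 1.71, 2.14 and 2.01 RPKM in WT. The modifier was therefore the less abundant transcript of this pair in all knockout libraries and the more abundant in all wild-type libraries.

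All 10 pairs of members were compared by their ratio within a library, as differences of log2(RPKM + 1), in which the added 1 draws the ratios of low genes together. With 3 libraries against 3 the exact permutation test cannot go below p = 0.1, so that none could pass. The ratio of Isg15 to Ube2l6 differed by -2.46 between Irf3KO and WT, and that of Ube2l6 to Usp18 by 2.11 (exact permutation p = 0.1 each, adjusted 0.125). The log2 ratio of Uba7 to Usp18 averaged 0.63 ± 0.15 in Irf3KO and -0.45 ± 0.19 in WT (SD, n = 3 each), a difference of 1.08 (exact permutation p = 0.1). For Isg15 and Usp18, the modifier and its deconjugase, the RPKM ratios overlapped. They were 3.26, 4.797 and 2.89 in Irf3KO and 5.27, 2.94 and 3.09 in WT. The difference in their log2 ratio was -0.35 with a pseudocount of 1 (exact permutation p = 0.3) and -0.03 with none (exact permutation p = 0.9). Ratios of Uba7 to Ube2l6 overlapped too, with a difference of -1.03 (exact permutation p = 0.2), or -0.60 without Irf3KO replicate 2. Ratios to Herc6 leaned on its value of 0.54 RPKM in Irf3KO replicate 2: the difference in Isg15 to Herc6 was -1.07 with a pseudocount of 1 and -0.60 with none.

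Each member was also set against a gene of the ubiquitin system with a like task. The ratios given per library are of RPKM itself, in which the scaling of the library cancels. Relative to Ubb, a polyubiquitin gene, Isg15 was at a ratio of 0.126, 0.0938 and 0.137 in Irf3KO and 0.623, 0.582 and 0.596 in WT. Ubb itself averaged 63.8 ± 1.51 RPKM in Irf3KO and 74.6 ± 9.21 RPKM in WT (SD, n = 3 each). Relative to Usp14, a deubiquitinase of the proteasome, Usp18 was at 0.152, 0.140 and 0.217 in Irf3KO and at 0.853, 1.001 and 0.960 in WT. Usp14 itself averaged 13.0 ± 3.52 RPKM in Irf3KO and 13.1 ± 1.17 RPKM in WT (SD, n = 3 each). It is also in the list, given below, of genes whose proteins work with the ISG15 system, so it is not wholly apart from that system. Uba7 relative to Uba1, the main E1 enzyme of ubiquitin, was at 0.0506, 0.0236 and 0.0445 in Irf3KO and at 0.0927, 0.111 and 0.118 in WT. Herc6 relative to Herc3, another ligase of the family, was at 0.358, 0.113 and 0.336 in Irf3KO and at 1.55, 1.004 and 0.699 in WT. Herc3 itself averaged 5.71 ± 0.818 RPKM in Irf3KO and 5.42 ± 1.92 RPKM in WT (SD, n = 3 each). In these 4 pairs the groups did not overlap.

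With a pseudocount of 1, the mean differences in log2 ratio were -2.21 for Isg15, -2.03 for Usp18, -1.45 for Herc6 and -1.32 for Uba7 (exact permutation p = 0.1 each, the smallest possible, and 0.125 adjusted over the 5 pairs). With none they were -2.35, -2.49, -2.11 and -1.51. Ube2l6 relative to Ube2l3, an E2 enzyme of the ubiquitin system, was at 2.43, 4.34 and 1.75 in Irf3KO and at 3.56, 2.23 and 2.73 in WT. Those groups overlapped, and the difference was -0.07 (exact permutation p = 0.9). Ube2l3 itself was at 8.93 ± 0.773 RPKM in Irf3KO and 8.24 ± 0.592 RPKM in WT (SD, n = 3 each). Ubb shares coding sequence with other ubiquitin genes, so its reads are uncertain.

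**Figure D3:**
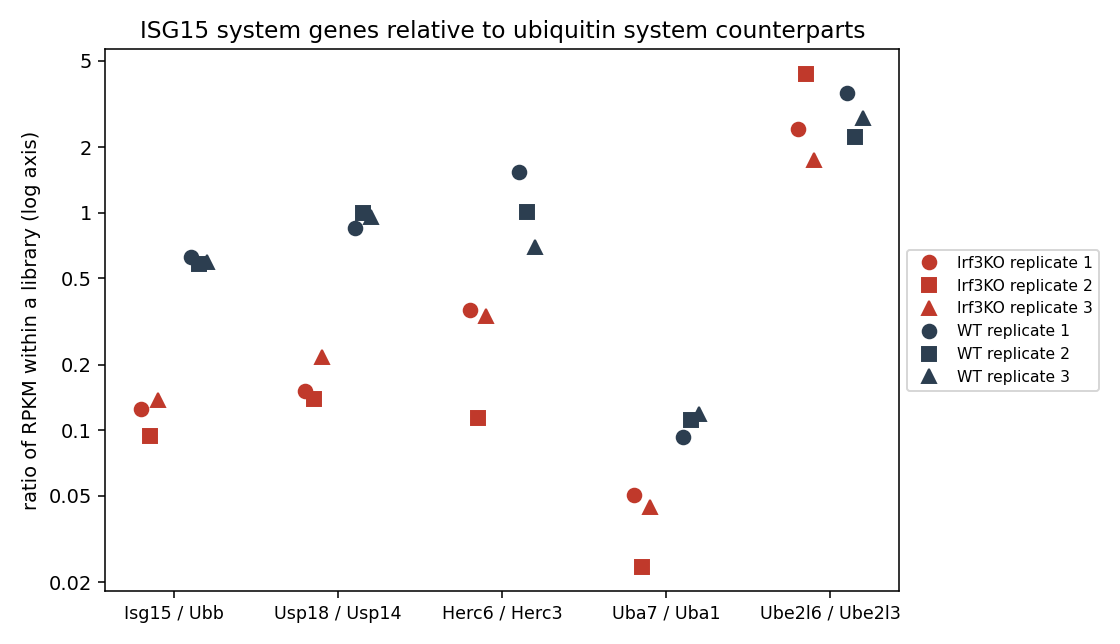
Ratio of RPKM (log axis) of each ISG15 system member to its counterpart in the ubiquitin system within each library, Irf3KO in red and WT in dark blue. The ratio of Isg15 to Ubb was at most 0.137 in Irf3KO and at least 0.582 in WT, and the ratio of Ube2l6 to Ube2l3 overlapped, from 1.75 to 4.34 in Irf3KO and from 2.23 to 3.56 in WT.

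Members were further read beside the other genes of their protein families. Of 40 other tested genes of the ubiquitin-specific protease (USP) family none was called in either direction, and none had a log2 fold change as low as that of Usp18. Their median was -0.22 and the lowest was Usp9x at -0.74. All 4 other HERC genes had values above that of Herc6. Herc1 and Herc2, large members of the family, were lower in every Irf3KO library than in any WT library, at 3.46 ± 1.70 against 4.76 ± 0.119 RPKM and at 7.97 ± 2.08 against 10.7 ± 0.678 RPKM (SD, n = 3 each; limma adjusted p = 0.561 and 0.556). Ube2l6 lay in the midst of the E2 family: of 26 other E2 genes 12 had a lower and 14 a higher log2 fold change, with a median of 0.11, and none was called. The 47 tested genes of other ubiquitin-like systems (such as SUMO, NEDD8, UFM1, the ATG8 conjugation of autophagy and ubiquitin itself) had no call and a median of -0.07, which turned to 0.06 when libraries were scaled by the median of ratios. None of the genes in these 4 lists had an unadjusted limma p under 0.05, which 5.96% of all tested genes had on the lower side and 2.45% on the higher side. In the list of other ubiquitin-like systems the smallest p was that of Map1lc3a, an ATG8 protein of autophagosomes, at 166, 628 and 233 RPKM in Irf3KO and 97.6, 130 and 197 RPKM in WT (log2 fold change 1.09 ± 0.49, limma adjusted p = 0.556), with its highest value in Irf3KO replicate 2. Senp5 and Senp8, proteases of the SUMO and NEDD8 systems, were at -0.61 ± 0.31 and -0.42 ± 0.21 on the log2 scale (adjusted p = 0.556 by limma for each).

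**Figure D4:**
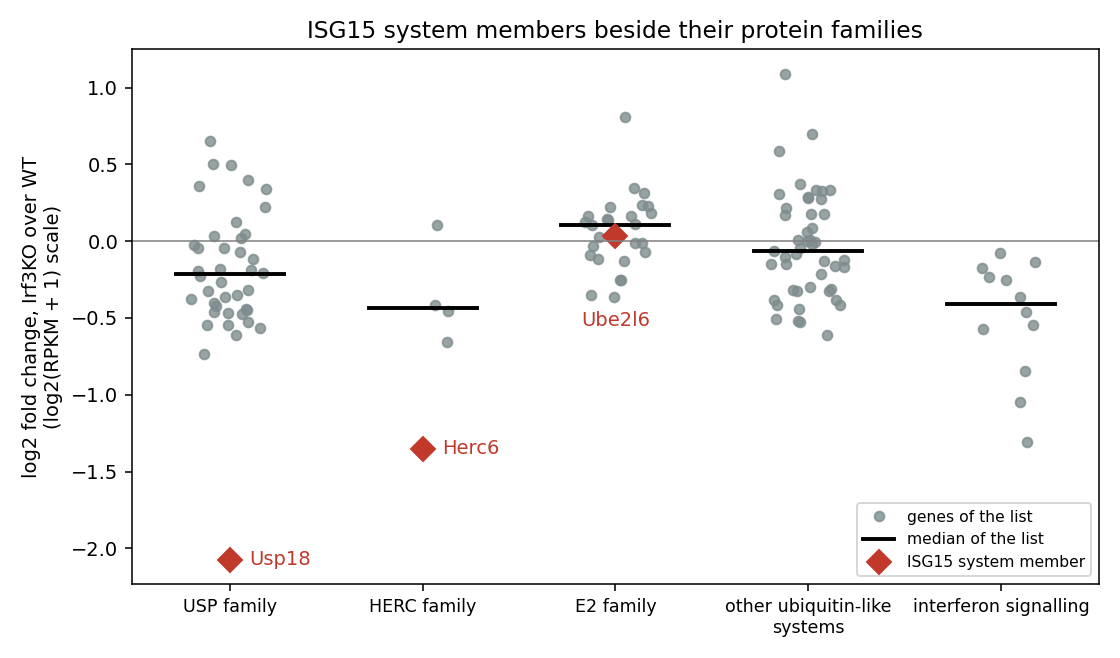
Log2 fold change (Irf3KO over WT) of Usp18, Herc6 and Ube2l6 (red diamonds) beside the other tested genes of the USP, HERC and E2 families, and of other ubiquitin-like systems and interferon signalling (grey points, black bars at medians). Usp18 at -2.08 and Herc6 at -1.35 lay below every other gene of their families, and Ube2l6 at 0.03 lay among the 26 other E2 genes.

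Genes of proteins that are known to work with the ISG15 system without being part of it were read from a list of 13. None was called over all genes, where 0.356% of tested genes were called lower and 0.147% higher. None had an unadjusted limma p under 0.05, which 5.96% of tested genes had on the lower side and 2.45% on the higher side. The median log2 fold change was -0.23, and some of the 13, such as Usp2, are also in the USP family list. Trim25, a ligase that can also attach ISG15 in human cells, stood at 14.26, 6.43 and 12.74 RPKM in Irf3KO and at 20.15, 15.08 and 16.98 RPKM in WT. Its groups did not overlap, and its log2 fold change was -0.66 ± 0.29 (limma adjusted p = 0.556). The deubiquitinase gene Usp2 was at 0.65 ± 0.35 (limma adjusted p = 0.556).

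The 12 genes of type I interferon signalling, the pathway that drives the system and that USP18 restrains, had log2 fold changes below 0 for all 12, as had 7652 of the 12913 tested genes, with a median of -0.41, and for 11 with a median of -0.30 under median-of-ratios scaling. None was called, and 4 had an unadjusted limma p under 0.05, which 5.96% of all tested genes had on the lower side. Stat2, to which USP18 binds, stood at 10.92, 4.47 and 10.64 RPKM in Irf3KO and at 17.31, 18.60 and 17.76 RPKM in WT, or -1.05 ± 0.31 on the log2 scale (adjusted p = 0.402 by limma). Irf9, which joins STAT2 in ISGF3, was at -0.85 ± 0.26 (limma adjusted p = 0.445). For both genes the groups did not overlap, and Irf3KO replicate 2 was the lowest library. Without it Stat2 was at -0.68 ± 0.12 and Irf9 at -0.55 ± 0.12 (limma adjusted p = 0.0857 and 0.177), and the median of the list was -0.12. Ifnar2, the receptor chain at which USP18 acts, was at 15.8 ± 4.17 RPKM in Irf3KO and 18.9 ± 4.46 RPKM in WT (SD, n = 3 each; limma adjusted p = 0.648).

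Of 13 tested genes whose products are reported to carry ISG15 or to be interferon-induced partners of it, 5 fell, Ifit3, Irf7, Ifit1, Mx1 and Rsad2, and none rose, where 0.356% of all tested genes were called lower. Their median log2 fold change was -1.34, and for 12 of the 13 every Irf3KO library was below every WT library, as for 11.8% of all tested genes. Irf3 itself, the targeted gene, is among the 13 and among these 12, and its fall was fixed by the choice of genotype. The 3 with the smallest p were Ifit3 and Ifit1, of the IFIT family, and Irf7, a transcription factor of the interferon response. In that order they were at -2.70 ± 0.24, -2.51 ± 0.27 and -2.39 ± 0.23 (SE, 3 libraries a group, adjusted p by limma 0.0029, 0.00719 and 0.00367). Without Irf3KO replicate 2, 7 of the 13 were called, among them Eif2ak2, the gene of the RNA-activated kinase PKR, against 0.541% of all tested genes called lower in that fit. Without Irf3KO replicate 3, 3 of them were called, and without WT replicate 1, 2 or 3 there were 3, 3 and 2.

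Genes were ranked by how near their values lay to those of Isg15 over the 6 libraries, as the root mean square difference of log2(RPKM + 1) relative to the WT mean. The 5 nearest with an established name were Oasl2, Irf7, Gpr137b-ps, Apoe and Slfn4, with differences of 0.15, 0.15, 0.21, 0.22 and 0.23. Gpr137b-ps is annotated as a pseudogene and may share reads with its parent gene. Oasl2, a protein of the OAS family with ubiquitin-like folds of its own, stood at 5.49, 3.29 and 6.60 RPKM in Irf3KO and at 33.99, 24.23 and 28.98 RPKM in WT. Among the members Usp18 was the nearest to Isg15, at 0.37 and rank 11 of the other genes. Herc6 followed at 0.80 and rank 72, Uba7 at 1.02 and rank 170, and Ube2l6 at 1.79 and rank 8681. With 2 groups of 3 libraries this ranking mostly orders genes by the size of their difference between genotypes.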

How the data were processed

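The authors deposited 1 table of RPKM per gene and library, rounded to 2 decimals, with a length per gene. Per the submitters' processing notes, the build was NCBIM37 (mm9), and the tools were the aligner STAR 2.3.0, the counter HTSeq 0.6.0, edgeR 3.8.6, SAMtools 0.1.18.0 and Picard 1.100. The sources used here do not give their settings, whether strand was used, or how the 12969 genes were selected. Without strand the reads of Usp18 and of a lincRNA gene opposite to it cannot be told apart. Uba7 and Herc6 overlap other annotated genes on their own strand. Columns were matched to samples by title, and 5 rows in which part of the name had moved into a value were repaired.

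Depth came from the smallest number of reads that made low RPKM values times gene length whole: 100% of the 95 to 537 values used per library lay within 0.2 reads of a whole number. Reads behind a member are RPKM times length times this depth. Rounding leaves the reads of long genes uncertain, and no test on counts was made.

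Genes averaging 1 RPKM or more over the libraries entered a limma fit (version 3.58.1, R 4.3.3) of log2(RPKM + 1) (mean-variance trend, two-sided, Benjamini-Hochberg adjustment over 12913 genes, threshold 0.05). This scale understates changes of low genes. The labels do not describe the animals further, and the p-values speak only of the spread among these libraries, which may be technical. On simulated data for this comparison (12913 genes), 72 of 100 genes with a 4-fold change were recovered, 27 of 100 with a 2-fold change, and 2 unchanged genes were called. The changed genes there had a mean log2(RPKM + 1) above 2, and the SD of every gene was capped at 1. Genes were drawn independently, so the simulation held no shift of a whole library such as that of Irf3KO replicate 2. Single ratios were tested by exact two-sided permutation.

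The members and lists were chosen with earlier results of these data known. Named genes were the members, their counterparts, Irf3, the 3 genes of smallest p in each context list and the 5 nearest to Isg15; others named were chosen after their values were seen, and some genes of the context lists are not reported here. Alternatives were other pseudocounts, filters, scaling and weights, no trend, a replicate block and leaving out each library.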

Additional observations from a re-analysis of the deposited data

How the results depend on the processing

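With only 3 libraries per group, and 41 to 53 reads behind the lowest Usp18 and Herc6 values, calls near the threshold moved with single libraries. Isg15 was called in every alternative run. Over the fits that left out 1 library, the log2 fold change ranged from -2.51 to -2.30 for Isg15, from -2.24 to -1.84 for Usp18, from -1.54 to -1.01 for Herc6, from -1.09 to -0.84 for Uba7 and from -0.24 to 0.28 for Ube2l6, which was -0.24, -0.10 and -0.04 without Irf3KO replicate 2, WT replicate 2 and WT replicate 3. The number of members called lower ranged from 1 to 4, that of all genes from 15 to 70 lower and from 6 to 27 higher, that of interferon signalling genes from 0 to 1 and that of ISG15 targets from 2 to 7. The difference in Ube2l6 to Ube2l3 ranged from -0.41 to 0.22, at 0.22 and 0.11 without Irf3KO replicate 3 and WT replicate 1. With a mean of at least 5 RPKM, where Herc6 was not tested, 22 genes were called lower and 12 higher, against 46 and 19. Limma array weights, by the gene-by-gene method because the default did not converge, gave Irf3KO replicate 2 a weight of 0.103 and Irf3KO replicate 3 one of 6.36. Uba7 at -0.85 and Herc6 at -1.08 were then called, and Ube2l6 was at -0.17. Over all genes 1751 were called lower and 1209 higher. Those lower held 4 members, 3 interferon signalling genes, 11 ISG15 targets (with Irf3 itself among them) and 6 genes of other ubiquitin-like systems. Those higher held 1 partner gene and 5 genes of other ubiquitin-like systems. The cause was not tested. Same-numbered libraries did not pair, with correlations of their deviations of 0.13, -0.10 and -0.10. With a replicate block, Herc6 was called at -1.35, with 187 genes lower, 63 higher, 1 interferon signalling gene and 9 ISG15 targets; the block changed no other member's call. Median-of-ratios scaling moved the median of all genes from -0.09 to 0.02, and Isg15, Usp18, Herc6, Uba7 and Ube2l6 were then at -2.30, -1.98, -1.28, -0.89 and 0.16. Other pseudocounts, no filter, median-of-ratios scaling and no trend changed no member's call.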

Other observations

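Agrn, the gene of the synapse organiser agrin and the next gene to Isg15 in the annotation, stood at 11.2, 10.9 and 13.3 RPKM in Irf3KO and at 18.8, 17.5 and 17.8 RPKM in WT. Its groups did not overlap, and its log2 fold change was -0.58 ± 0.18 (SE, n = 3 per group; limma adjusted p = 0.434). Usp5, a deubiquitinase whose product also reacts with ISG15 in human cell extracts, stood at 28.7, 46.7 and 32.4 RPKM in Irf3KO and at 27.5, 27.8 and 26.5 RPKM in WT. It was the partner gene with every knockout library above every wild-type library, as were 6.61% of all tested genes, and its log2 fold change was 0.36 ± 0.22 (limma adjusted p = 0.556). Both genes were chosen after their values were seen.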
